A study of Homo sapiens with 6 samples.

Results

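Overexpression of ESRP2 was examined in MIA-PaCa2, an established human pancreatic carcinoma cell line, by setting the library labelled ESRP2 against the library of the same line with the LPCX control. These are 2 of the 6 RNA sequencing libraries of the series, which also holds MIA-PaCa2 with ESRP1 and PANC-1, another pancreatic carcinoma line, with ESRP2, ESRP1 and LPCX. No treatment is named for any group, and all cells were grown with fetal bovine serum. There is 1 library a group, so no difference here has a replicate check and no p-value is given. Whether each form is a clone or a pool of cells is not given in the sources used here. Gene levels were compared for 9914 of 19349 protein-coding genes, those with at least 5 TPM, a transcript's abundance per unit of its length relative to all others, in either MIA-PaCa2 library. Transcript shares, the percentage of a gene's TPM that each transcript took, were compared for 4135 genes with 16377 transcripts and at least 20 TPM in both libraries. Exon inclusion was read from 1287 alternative exons in 872 of these genes, leaving out exons nearly always included, or nearly always skipped, in both libraries.

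ESRP1 and ESRP2 are paralogous RNA-binding proteins of epithelial cells that steer the choice of alternative exons in pre-mRNA. In epithelia they favour the epithelial forms of receptors, cytoskeletal adaptors and trafficking proteins, and their loss accompanies epithelial-mesenchymal transition. Exons followed by an ESRP binding site in the downstream intron tend to be included, and exons that carry or follow one tend to be skipped.

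MIA-PaCa2 has next to no ESRP of its own, which sets the contrast. ESRP2 was at 197 TPM in the ESRP2 library, 0.106 TPM in the ESRP1 library and 0.0704 TPM in the LPCX library. ESRP1 stayed near 0 in the same comparison, with 0.125 TPM in the ESRP2 library and 0.0781 TPM in the LPCX library. Of 7 duct and carcinoma markers 4 reached 1 TPM in both libraries, and they summed to 3791 TPM with ESRP2 and 3529 TPM with LPCX. KRT8, KRT18, KRT19 and SOX9 made up that sum, while the epithelial adhesion genes EPCAM and CDH1 were at 0 and 0.173 TPM with ESRP2 and at 0 and 0.157 TPM with LPCX. Of 4 mesenchymal markers 2 reached 1 TPM in both libraries. VIM, the intermediate filament of mesenchymal cells, was at 5620 TPM with ESRP2 and 5523 TPM with LPCX. ZEB1 was at 24.2 TPM with ESRP2 and 21.6 TPM with LPCX. CDH2 was at 0 in both libraries, and FN1 was at 0.281 TPM with ESRP2 and 0.163 TPM with LPCX. KRT7, another duct keratin, was at 0.228 TPM with ESRP2 and 0.176 TPM with LPCX. None of 4 leukocyte and none of 4 acinar and islet markers reached 1 TPM in either library, and the acinar and islet markers were at 0 throughout. Of 5 fibroblast markers 1 reached 1 TPM with ESRP2 and 2 with LPCX, led by COL1A2, a collagen chain, at 124 TPM with ESRP2 and 132 TPM with LPCX. DCN and LUM were at 0 in both. In both libraries 1 of 3 endothelial and 1 of 4 neuronal markers reached 1 TPM, at up to 2.80 TPM.

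The exons below carry the splicing result, and they are shown as spliced RNA read into DNA letters, 5′ to 3′. Capitals mark the exon whose inclusion differed, and lower case marks up to 15 bases of the neighbouring exons of the same transcript. For INF2, ITGA6, NF2 and BAIAP2, whose exon runs into the untranslated region, only its coding letters up to the stop codon are printed. Coordinates give the whole exon on GRCh38, and the letters come from GENCODE release 29 transcripts. The last 4 exons, of MYOF, MBNL1, CLIP1 and PRC1, had lower inclusion with ESRP2, and the others had higher inclusion.
INF2, 57 nt, chr14:104715284-104715340, plus strand: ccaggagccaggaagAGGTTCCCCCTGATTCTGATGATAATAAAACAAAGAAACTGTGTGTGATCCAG
ITGA6, 130 nt, chr2:172501772-172501901, plus strand: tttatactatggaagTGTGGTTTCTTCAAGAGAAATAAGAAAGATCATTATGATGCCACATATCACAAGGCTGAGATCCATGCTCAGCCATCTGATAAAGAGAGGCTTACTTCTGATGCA
NF2, 45 nt, chr22:29683020-29683064, plus strand: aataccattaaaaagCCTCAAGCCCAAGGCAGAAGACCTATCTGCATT
BAIAP2, 46 nt, chr17:81110914-81110959, plus strand: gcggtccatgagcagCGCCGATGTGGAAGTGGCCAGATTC
MAP3K7, 81 nt, chr6:90544552-90544632, minus strand: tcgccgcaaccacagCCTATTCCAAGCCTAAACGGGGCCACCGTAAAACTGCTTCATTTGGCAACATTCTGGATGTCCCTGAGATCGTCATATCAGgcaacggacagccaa
FNIP1, 84 nt, chr5:131710578-131710661, minus strand: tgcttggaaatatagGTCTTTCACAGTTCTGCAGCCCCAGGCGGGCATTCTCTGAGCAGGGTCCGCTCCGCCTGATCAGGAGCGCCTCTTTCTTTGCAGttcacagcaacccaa
ENAH, 63 nt, chr1:225504991-225505053, minus strand: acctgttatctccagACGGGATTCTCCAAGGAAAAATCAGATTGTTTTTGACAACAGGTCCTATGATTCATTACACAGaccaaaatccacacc
SLK, 93 nt, chr10:104010816-104010908, plus strand: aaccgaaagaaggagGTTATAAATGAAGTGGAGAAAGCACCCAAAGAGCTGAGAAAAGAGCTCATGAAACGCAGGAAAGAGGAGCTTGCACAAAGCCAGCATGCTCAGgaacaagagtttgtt
DNM2, 12 nt, chr19:10808569-10808580, plus strand: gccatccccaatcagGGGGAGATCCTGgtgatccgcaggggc
USO1, 12 nt, chr4:75760594-75760605, plus strand: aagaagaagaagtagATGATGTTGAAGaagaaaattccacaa
USO1, 21 nt, chr4:75795336-75795356, plus strand: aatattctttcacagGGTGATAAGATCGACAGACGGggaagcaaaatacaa
MYOF, 39 nt, chr10:93392917-93392955, minus strand: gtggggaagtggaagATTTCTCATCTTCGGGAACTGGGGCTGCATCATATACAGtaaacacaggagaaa
MBNL1, 36 nt, chr3:152455542-152455577, plus strand: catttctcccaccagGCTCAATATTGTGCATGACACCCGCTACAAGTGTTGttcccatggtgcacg
CLIP1, 105 nt, chr12:122347375-122347479, minus strand: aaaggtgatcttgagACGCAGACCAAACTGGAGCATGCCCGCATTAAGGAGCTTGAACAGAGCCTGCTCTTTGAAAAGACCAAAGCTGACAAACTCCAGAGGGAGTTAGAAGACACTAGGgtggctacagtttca
PRC1, 42 nt, chr15:90969079-90969120, minus strand: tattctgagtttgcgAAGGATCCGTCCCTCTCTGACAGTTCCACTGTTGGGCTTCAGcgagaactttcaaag
INF2 and ITGA6 show what such an exon can encode. The INF2 letters end in the codons of the CAAX box, the lipid anchor of the membrane-bound form of this actin formin, and those of ITGA6 encode the cytoplasmic tail known as alpha-6A. The DNM2 and USO1 exons of 12 bases each add 4 codons within an unchanged frame.

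Inclusion of an exon is given as the percentage of TPM, among transcripts that hold or skip it, that came from transcripts holding it. In the ESRP2 library 33 exons of 28 genes had inclusion at least 20 percentage points higher than in the LPCX library, 2.56% of those measured. In the other direction 7 exons had inclusion at least 20 points lower, 0.544% of those measured. Most exons hardly differed, with 71.2% of them within 5 points of LPCX. At a step of 10 points the counts were 89 exons higher and 42 lower.

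Actin regulators had some of the largest differences. INF2 inclusion was 88.3% with ESRP2, 87.3% with ESRP1 and 17.3% with LPCX. The transcript that holds this exon, NM_022489, made up 81.9% of INF2 with ESRP2 and 15.6% with LPCX, and NM_001031714 without it made up 10.8% with ESRP2 and 74.6% with LPCX. Total INF2 was 151 TPM with ESRP2 and 115 TPM with LPCX, so its main form differed between the libraries while its level differed by less than 2-fold. BAIAP2, an adaptor between Rac and actin, had the largest point difference, with its 46-base exon at 86.1% with ESRP2, 38.0% with ESRP1 and 7.97% with LPCX. That value rests on few molecules, since transcripts that hold or skip the exon summed to 18.7 TPM with ESRP2 and 10.3 TPM with LPCX. ENAH, which elongates actin filaments, included its 63-base exon at 57.1% with ESRP2, 65.6% with ESRP1 and 2.40% with LPCX.

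Other cytoskeletal proteins followed. SPTAN1, the alpha chain of spectrin, included a 60-base coding exon at 93.6% with ESRP2, 91.8% with ESRP1 and 60.2% with LPCX. MYO18A, an unconventional myosin, was read from shares alone, and NM_203318 took 29.6% with ESRP2, 42.0% with ESRP1 and 65.7% with LPCX.

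Adhesion receptors and membrane-associated proteins moved as well. Of the 8 alternative exons measured in CD44, the hyaluronan receptor, the last 3 were included at 64.0%, 64.0% and 65.2% with ESRP2 and at 3.67%, 3.67% and 8.64% with LPCX. The other 5 were each at 19.9% with ESRP2, 29.8% with ESRP1 and 3.39% with LPCX, below the 20-point step. ITGA6, the laminin receptor subunit, held its alpha-6A exon at 79.5% with ESRP2, 78.9% with ESRP1 and 39.0% with LPCX. NF2, which encodes the tumour suppressor merlin, included the 45-base exon near its end at 90.4% with ESRP2, 87.3% with ESRP1 and 48.0% with LPCX. Its form without that exon, NM_000268, took 7.02% of NF2 with ESRP2 and 43.5% with LPCX. A 60-base version of the NF2 exon had 31.2% with ESRP2 and 7.28% with LPCX, from only 5.49 TPM of informative transcripts with ESRP2 and 25.7 TPM with LPCX. PTPRF, a receptor phosphatase of cell contacts, included a 27-base exon at 29.6% with ESRP2, 13.5% with ESRP1 and 1.34% with LPCX. NUMB, an endocytic adaptor and Notch inhibitor, included a 33-base exon at 54.6% with ESRP2, 50.1% with ESRP1 and 23.6% with LPCX. Each of these genes thus held more of an exon that LPCX cells used less often or hardly at all.

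Membrane traffic and signalling genes differed too. DNM2, the GTPase dynamin 2 of endocytosis, included its 12-base exon at 74.0% with ESRP2, 48.9% with ESRP1 and 15.3% with LPCX. DNM2 also has a pair of 139-base exons used in place of each other, and the downstream one of the pair was at 6.29% with ESRP2, 14.6% with ESRP1 and 25.04% with LPCX. Both USO1 exons, 12 and 21 bases long in a tether of Golgi vesicles, were held by the same transcript, at 43.0% with ESRP2, 25.5% with ESRP1 and 1.04% with LPCX. Dynamin and USO1 thus had their highest inclusion of the 3 MIA-PaCa2 libraries with ESRP2. SLK, a kinase of the cytoskeleton, included a 93-base exon at 43.7% with ESRP2, 45.6% with ESRP1 and 0.827% with LPCX. MAP3K7, the kinase TAK1, included its 81-base exon at 68.9% with ESRP2, 40.7% with ESRP1 and 31.2% with LPCX. FNIP1, a partner of folliculin in nutrient sensing, included an 84-base exon at 79.3% with ESRP2, 80.6% with ESRP1 and 41.0% with LPCX. The FNIP1 transcript NM_133372 took 51.3% with ESRP2, 46.9% with ESRP1 and 4.40% with LPCX. RAC1, the small GTPase, included its 57-base exon, which makes the RAC1b form, at 16.9% with ESRP2, 6.36% with ESRP1 and 0.469% with LPCX, a difference below the 20-point step. MAP3K7 and RAC1 in the ESRP1 library were nearer to LPCX than to ESRP2.

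Exons with lower inclusion were fewer and their differences smaller. MYOF, a ferlin of membrane repair, had the largest, with a 39-base exon at 65.1% with ESRP2, 82.2% with ESRP1 and 96.5% with LPCX. JAG2, a Notch ligand, included a 114-base exon at 65.6% with ESRP2, 78.0% with ESRP1 and 92.4% with LPCX. The splicing regulator MBNL1 included a 36-base exon at 45.0% with ESRP2, 53.4% with ESRP1 and 69.2% with LPCX, and its separate 54-base exon at 61.1% with ESRP2, 49.7% with ESRP1 and 39.4% with LPCX. NM_021038, which holds the 36-base exon and skips the 54-base one, took 31.9% with ESRP2 and 54.0% with LPCX. NM_207293, which does the reverse, took 50.7% with ESRP2 and 28.1% with LPCX. The opposite directions of the 2 MBNL1 exons thus rest largely on the same transcripts and are not separate observations. CLIP1, a protein of growing microtubule ends, included a 105-base exon at 6.88% with ESRP2, 7.62% with ESRP1 and 30.6% with LPCX. PRC1, a bundler of the anaphase spindle, included a 42-base exon at 27.8% with ESRP2, 39.5% with ESRP1 and 48.7% with LPCX. The remaining exons past the step were in GSE1, at 53.8% with ESRP2 and 80.8% with LPCX, and OSBPL3, at 71.1% with ESRP2 and 95.9% with LPCX. None of these 7 exons was at 0 with ESRP2. The ESRP1 comparison uses the same LPCX library, so values of the 2 proteins are set side by side and not counted against each other.

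**Figure D1:**
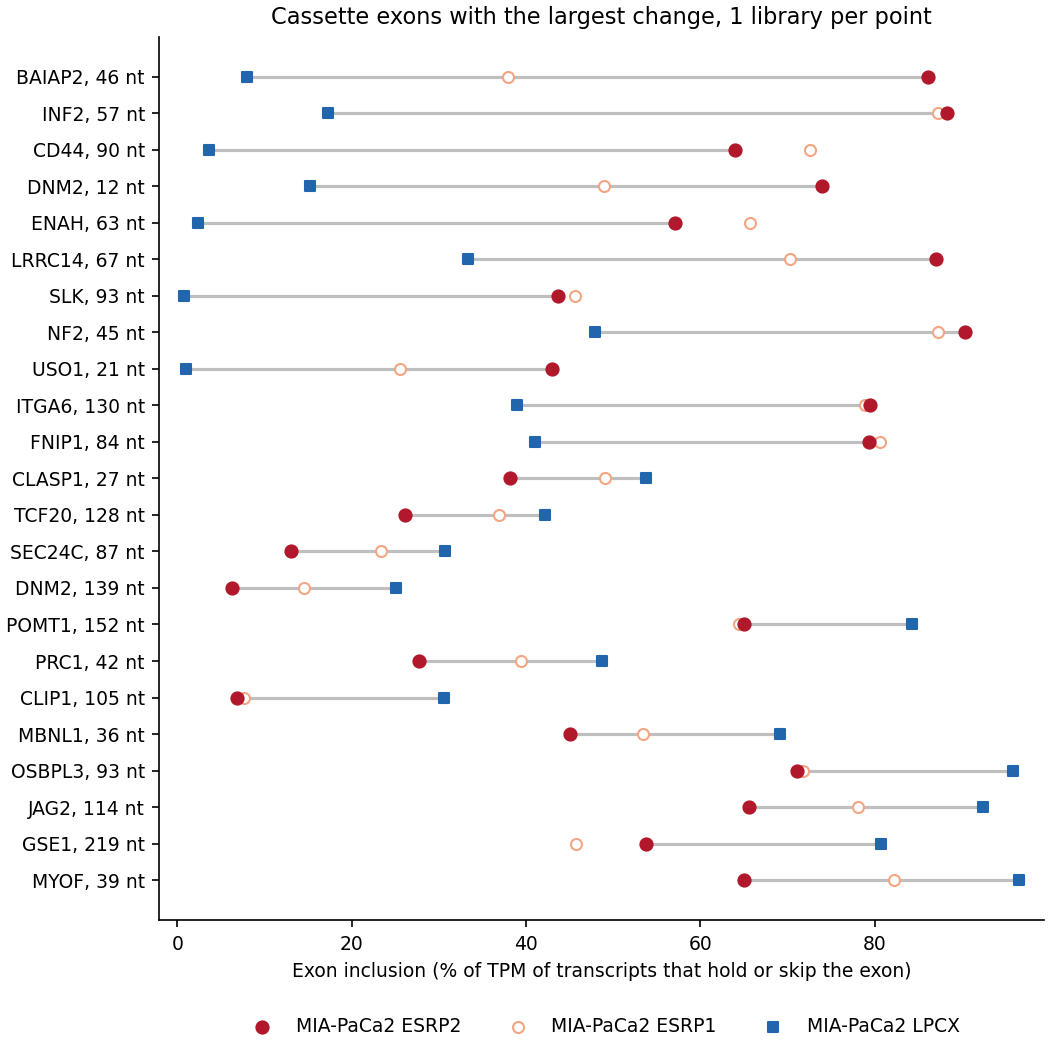
Inclusion in percent of 11 of the 12 exons with the largest higher and of the 12 with the largest lower inclusion in MIA-PaCa2 ESRP2 than in LPCX, 1 exon per gene and direction. Filled circles are ESRP2, open circles ESRP1 and squares LPCX, 1 library each, and grey lines join ESRP2 and LPCX. The differences at the top of the plot, such as 88.3% against 17.3% in INF2, exceed those at the bottom, such as 65.1% against 96.5% in MYOF.

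The moved exons had features that the 20-point step does not use. Of the 33 exons with higher inclusion 27 had a length divisible by 3, and of the 7 with lower inclusion 7. Of all measured exons 61.6% had such a length. It keeps the reading frame only where an exon is wholly coding, which those of INF2 and NF2 were not. The moved exons were wholly coding in 26 of 33 and in 7 of 7 cases, against 72.8% of all. Of the wholly coding exons alone, 88.5% of those with higher inclusion kept the frame, against 69.4% of all. Exons with higher inclusion were short, with a median of 63 bases, against 93 bases for those with lower inclusion and 102 bases for all. Of the 33 exons 5 had at most 30 bases, in USO1, DNM2, PTPRF and INCENP, which is 15.2% against 5.13% of all. Exons of CD44, USO1, NF2 and MBNL1 are read from shared transcripts, so these counts are not of independent events, and no test was made.

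Over whole transcripts, 68 had a share at least 20 points higher with ESRP2, 0.415% of those measured, and 62 a share at least 20 points lower, 0.379%. They belonged to 78 genes, 1.89% of the 4135 genes measured, and 442 genes, 10.7%, passed 10 points. None of the 78 genes differed 2-fold in its total level. Of all tested genes only 0.131% were 2-fold higher and 0.192% lower, so that count says little about the 78. Their median absolute log2 ratio was 0.13, against 0.12 for all tested genes, so genes with a moved share differed in level about as much as genes in general. In 47 of the 78 genes both the transcript that gained most and the one that lost most could be placed on the genome. Their annotated coding sequences differed in 43 and were the same in 4. First and last exons overlapped in 38 of these 47 pairs, while 5 pairs had separate first exons and 5 separate last exons. Nearest the step on the higher side, MRPS18C NM_016067 lay inside, at 83.1% with ESRP2 and 62.9% with LPCX. Outside it, counting only the largest difference of each gene, MLPH NM_001042467 came nearest, at 51.1% with ESRP2 and 31.4% with LPCX. On the lower side GCDH NM_013976 lay inside, at 9.21% with ESRP2 and 29.2% with LPCX. IKBKB NM_001556 came nearest outside by the same count, at 42.8% with ESRP2 and 62.8% with LPCX.

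Large share differences were also seen in 4 other genes. CYB561A3, a cytochrome of the lysosome, had 38.6% NM_153611 with ESRP2, 39.6% with ESRP1 and 98.0% with LPCX, at a gene level of 24.7 TPM with ESRP2 and 24.8 TPM with LPCX. UAP1, an enzyme of UDP-N-acetylglucosamine synthesis, had 15.7% NM_003115 with ESRP2, 13.1% with ESRP1 and 74.8% with LPCX. Its NM_001324116 took 58.2% with ESRP2, 58.0% with ESRP1 and 11.6% with LPCX, and total UAP1 was 281 TPM with ESRP2 and 280.5 TPM with LPCX. LRRC14, a leucine-rich repeat protein, had 87.1% NM_001272036 with ESRP2, 70.2% with ESRP1 and 33.4% with LPCX, with the same coding sequence in both forms. SP1, a general transcription factor, had 46.2% NM_138473 with ESRP2, 90.7% with ESRP1 and 80.6% with LPCX, so here the ESRP1 library lay on the other side of LPCX.

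Of 43 genes listed as ESRP-regulated splicing targets in other cells, 28 had shares, and 15 of them had a share moved by 20 points, against 1.89% of all genes. A move of 10 points was seen in 20 of the 28, against 10.7% of all genes. The median of the largest share difference per gene was 23.0 points in these targets and 2.98 points in all genes. Beside those named above, ABI1, an actin adaptor, had 17.2% NM_001012752 with ESRP2 and 47.7% with LPCX. TJP1, the tight junction scaffold ZO-1, had 29.9% NM_001330239 with ESRP2 and 54.0% with LPCX. CTNND1, the p120 catenin, had 49.8% NM_001085468 with ESRP2 and 26.3% with LPCX. Several listed targets moved little: the largest difference was 0.47 points in ARFGAP2, 2.62 points in SCRIB and 4.28 points in SPAG9. The list holds targets known from epithelial cells, and it was drawn up with earlier results of these libraries known. FGFR2, whose IIIb exon is the best known target, was under 5 TPM in both libraries and has no share.

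The same exons can be read in PANC-1, whose ESRP2 and LPCX libraries took no part in choosing them. PANC-1 already had ESRP2, with 308 TPM in its ESRP2 library and 34.8 TPM in its LPCX library. Of the 33 exons with higher inclusion in MIA-PaCa2, 30 could be measured in PANC-1 and 18 were at least 10 points higher there with ESRP2, against 5.27% of all exons, and 0 were at least 10 points lower, against 3.07%. Of the 7 exons with lower inclusion, 5 could be measured and 3 were at least 10 points lower. Transcripts gave a similar count. Of 56 with a higher share in MIA-PaCa2, 29 were at least 10 points higher in PANC-1, against 1.93% of all. Another 1 was at least 10 points lower, against 1.69%, and the rest differed by less than 10 points in either direction. Of 51 with a lower share, 25 were at least 10 points lower in PANC-1, against 1.69% of all. Another 1 was at least 10 points higher, against 1.93%, and the rest again differed by less than 10 points in either direction. MYOF was at 65.7% in PANC-1 ESRP2 and 97.0% in PANC-1 LPCX, close to the MIA-PaCa2 values.

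Other exons differed little in PANC-1, and several of those were already included there with LPCX. INF2 inclusion was 93.6% in PANC-1 ESRP2 and 86.4% in PANC-1 LPCX. ITGA6 was at 96.7% in PANC-1 ESRP2 and 88.7% in PANC-1 LPCX, and NF2 at 92.1% in PANC-1 ESRP2 and 83.8% in PANC-1 LPCX. These 3 exons had 17.3%, 39.0% and 48.0% inclusion in MIA-PaCa2 LPCX. Others were at intermediate levels in PANC-1. FBXW11, a subunit of a ubiquitin ligase, had a 63-base exon at 49.0% in MIA-PaCa2 ESRP2 and 27.6% in MIA-PaCa2 LPCX, but at 41.4% in PANC-1 ESRP2 and 43.1% in PANC-1 LPCX. TSEN15, a subunit of the tRNA splicing endonuclease, had a 38-base exon at 40.2% in MIA-PaCa2 ESRP2 and 10.01% in MIA-PaCa2 LPCX, and at 11.9% in PANC-1 ESRP2 and 16.6% in PANC-1 LPCX. Transcripts that hold or skip the TSEN15 exon made up only 9.68 of 58.9 TPM in MIA-PaCa2 ESRP2 and 12.4 of 59.3 TPM in MIA-PaCa2 LPCX. The difference between the lines was not tested.

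**Figure D2:**
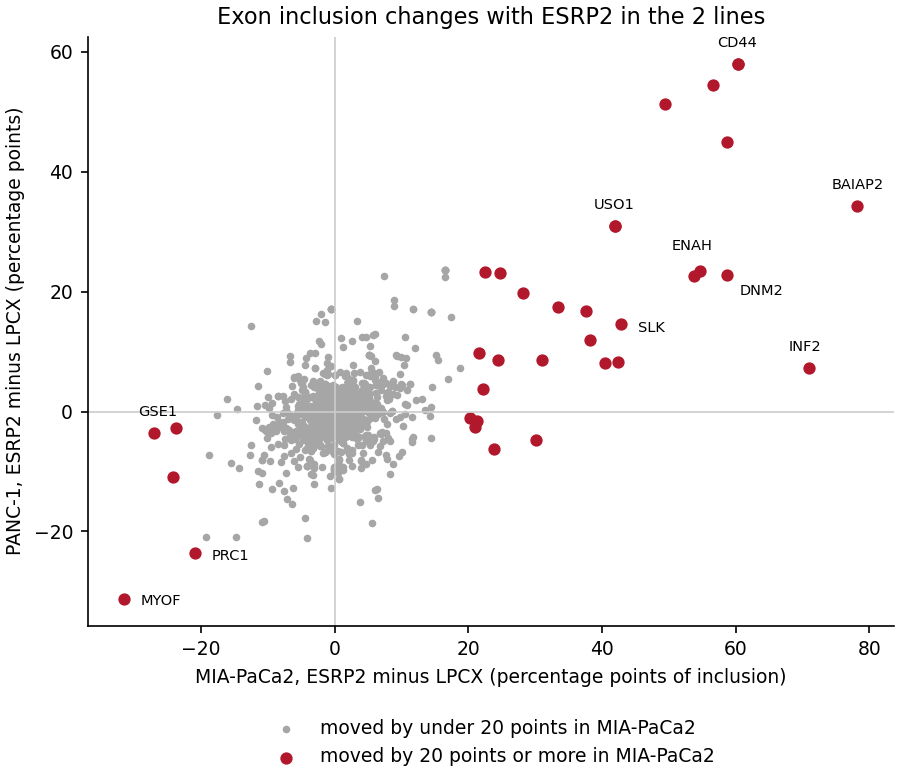
Difference in exon inclusion, ESRP2 minus LPCX in percentage points, in MIA-PaCa2 on the horizontal axis and PANC-1 on the vertical axis, for the 1044 exons measured in both lines. Dark points are exons past 20 points in MIA-PaCa2; of the 30 to the right, 18 lie at 10 points or more in PANC-1, and INF2 lies far right at 7.26 points in PANC-1.

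Most genes differed little in level. The log2 ratio of TPM plus 1 between ESRP2 and LPCX lay within 0.25 of 0 for 80.8% of the 9914 genes and within 0.5 for 96.9%. Its median was 0.05 and its SD over genes 0.23. At least 2-fold higher with ESRP2 were 13 genes, 0.131% of those tested, and 19 genes were at least 2-fold lower, 0.192%. With 1 library a side, the spread between cultures is unknown, and these genes are named by size alone. In bulk RNA, fewer cells that express a gene and less RNA of it per cell cannot be told apart.

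The genes at least 2-fold higher beside ESRP2 itself included TNS4, KRT13 and GRHL1, which are known from epithelial cells. TNS4, a tensin at focal adhesions, had 30.7 TPM with ESRP2, 17.2 TPM with ESRP1 and 10.1 TPM with LPCX, a log2 ratio of 1.52 of ESRP2 over LPCX. KRT13, a keratin of stratified epithelia, had 91.7 TPM with ESRP2, 79.0 TPM with ESRP1 and 35.6 TPM with LPCX, a log2 ratio of 1.34. GRHL1, an epithelial transcription factor, had 8.19 TPM with ESRP2, 8.79 TPM with ESRP1 and 3.21 TPM with LPCX, a log2 ratio of 1.13. KRT13 and GRHL1 were thus high in both ESRP libraries, while TNS4 was highest with ESRP2. Just under 2-fold were KRT15, at 62.1 TPM with ESRP2, 66.8 TPM with ESRP1 and 32.5 TPM with LPCX, and SFN, the 14-3-3 sigma protein of epithelia, at 14.4 TPM with ESRP2, 19.5 TPM with ESRP1 and 7.31 TPM with LPCX. KRT19 differed little, with 250.1 TPM with ESRP2 and 234 TPM with LPCX.

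The other higher genes have varied roles. CXCL5, a neutrophil chemokine, had 335 TPM with ESRP2, 235 TPM with ESRP1 and 166 TPM with LPCX. DDIT4L, an inhibitor of mTOR signalling, had 56.0 TPM with ESRP2, 31.5 TPM with ESRP1 and 19.3 TPM with LPCX. Both were ordered ESRP2, ESRP1, LPCX from high to low. TGFBI, a matrix protein induced by TGF-beta, had 26.9 TPM with ESRP2, 18.2 TPM with ESRP1 and 12.7 TPM with LPCX. ADAMTS4, a protease of the matrix, had 22.1 TPM with ESRP2, 12.5 TPM with ESRP1 and 9.64 TPM with LPCX, and the related ADAMTSL1 had 7.80 TPM with ESRP2, 3.20 TPM with ESRP1 and 2.52 TPM with LPCX. TRAF1, an adaptor of TNF receptors, had 12.5 TPM with ESRP2, 9.44 TPM with ESRP1 and 5.36 TPM with LPCX. These matrix and signalling genes followed the same order. The list also held the histone genes HIST1H4E, at 9.34 TPM with ESRP2 and 3.87 TPM with LPCX, and HIST1H2BE, at 5.72 TPM with ESRP2 and 1.80 TPM with LPCX. It ended with the readthrough entry GPR75-ASB3, at 7.65 TPM with ESRP2, 7.02 TPM with ESRP1 and listed at 0 with LPCX. Reads of that readthrough overlap ASB3, which had 18.2 TPM with ESRP2 and 28.01 TPM with LPCX, so its value is uncertain.

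Genes at least 2-fold lower included several of inflammation and cell-surface signalling. CARD16, an inhibitor of caspase-1, had 2.06 TPM with ESRP2, 20.6 TPM with ESRP1 and 15.3 TPM with LPCX, a log2 ratio of -2.41 of ESRP2 over LPCX. CASP4, an inflammatory caspase encoded in the same region, had a log2 ratio of -1.21. Its levels were 34.3 TPM with ESRP2, 90.1 TPM with ESRP1 and 80.3 TPM with LPCX. CASP1 of that region was low and went the other way, with 1.25 TPM with ESRP2, 3.37 TPM with ESRP1 and 0.528 TPM with LPCX. CARD17, also of that region, had 0.404 TPM with ESRP2 and 1.16 TPM with LPCX. CASP8, a caspase encoded elsewhere, had a log2 ratio of 0.03. CXCR4, the receptor of the chemokine CXCL12, had 10.1 TPM with ESRP2, 24.7 TPM with ESRP1 and 26.8 TPM with LPCX, a log2 ratio of -1.32. IL18R1, the interleukin 18 receptor, had 5.06 TPM with ESRP2, 8.99 TPM with ESRP1 and 13.5 TPM with LPCX, and IL1R1, encoded near it, had 68.4 TPM with ESRP2, 97.0 TPM with ESRP1 and 109 TPM with LPCX. IL1R1, which is under 2-fold, CARD17 and the caspases were looked up after the values of their neighbours were seen. In CARD16, CASP4 and CXCR4 the ESRP1 library lay near LPCX and the ESRP2 library apart from both.

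The other lower genes have varied roles. ROR1, a receptor of WNT5A, had 1.80 TPM with ESRP2, 5.06 TPM with ESRP1 and 6.85 TPM with LPCX. WLS, which carries Wnt proteins to the cell surface, had 31.7 TPM with ESRP2, 78.1 TPM with ESRP1 and 67.7 TPM with LPCX. RYK, another Wnt receptor, was not 2-fold lower, with a log2 ratio of 0.13. The receptor ROR2 was too low to compare, at 0.278 TPM with ESRP2 and 0.490 TPM with LPCX. The list of Wnt pathway and target genes, which holds neither WLS nor ROR1, had 14 of 21 positive with a median of 0.04, and APC had 10.5 TPM with ESRP2 and 7.58 TPM with LPCX. S100A6, a calcium-binding protein, was the most abundant of the lower genes, with 1181 TPM with ESRP2, 2062 TPM with ESRP1 and 2467 TPM with LPCX. S100A4 had 3038 TPM with ESRP2 and 3107 TPM with LPCX. NRP2, a neuropilin, had 6.10 TPM with ESRP2, 12.4 TPM with ESRP1 and 13.2 TPM with LPCX. SHOX2, a homeobox factor, had 27.5 TPM with ESRP2, 52.2 TPM with ESRP1 and 56.2 TPM with LPCX, and GCH1, the first enzyme of tetrahydrobiopterin synthesis, had 21.4 TPM with ESRP2, 42.2 TPM with ESRP1 and 44.4 TPM with LPCX. MEST, an imprinted gene, had 13.8 TPM with ESRP2, 25.1 TPM with ESRP1 and 30.5 TPM with LPCX. C15orf48 had 17.8 TPM with ESRP2, 46.2 TPM with ESRP1 and 41.4 TPM with LPCX, and TNFSF18, a TNF family ligand, had 8.46 TPM with ESRP2, 22.9 TPM with ESRP1 and 18.8 TPM with LPCX. GHRL, the ghrelin gene, differed from these in being low in both ESRP libraries, with 0.771 TPM with ESRP2, 0.854 TPM with ESRP1 and 8.56 TPM with LPCX. PQLC2L had 3.30 TPM with ESRP2, 10.5 TPM with ESRP1 and 9.02 TPM with LPCX.

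At least 4 of the 19 lower genes share sequence with another entry, so the split of reads between entries is uncertain. SERF1A had 6.34 TPM with ESRP2 and 18.5 TPM with LPCX, while its near-identical copy SERF1B had 49.2 TPM with ESRP2 and 44.9 TPM with LPCX. GTF2H2C had 4.89 TPM with ESRP2 and 11.3 TPM with LPCX, and its copy GTF2H2 had 45.5 TPM with ESRP2 and 35.7 TPM with LPCX. SNURF, at 63.4 TPM with ESRP2 and 148 TPM with LPCX, shares its locus with SNRPN, at 21.3 TPM with ESRP2 and 23.7 TPM with LPCX. NDUFC2-KCTD14, a readthrough, had 3.77 TPM with ESRP2 and 11.1 TPM with LPCX, beside NDUFC2 at 29.9 TPM with ESRP2 and 28.5 TPM with LPCX. None of SERF1B, GTF2H2, SNRPN and NDUFC2 was 2-fold lower itself. KCTD14, the other partner in the readthrough, was too low to compare, at 0.233 TPM with ESRP2 and 0.551 TPM with LPCX. At the 2-fold step itself, NRP2 at a log2 ratio of -1.002 was the last lower gene inside and PDE5A at -0.97 the first outside. On the other side CXCL5 at 1.003 was the last inside and SERPINE2, a serine protease inhibitor at 78.6 TPM with ESRP2 and 39.0 TPM with LPCX, the first outside at 0.99.

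**Figure D3:**
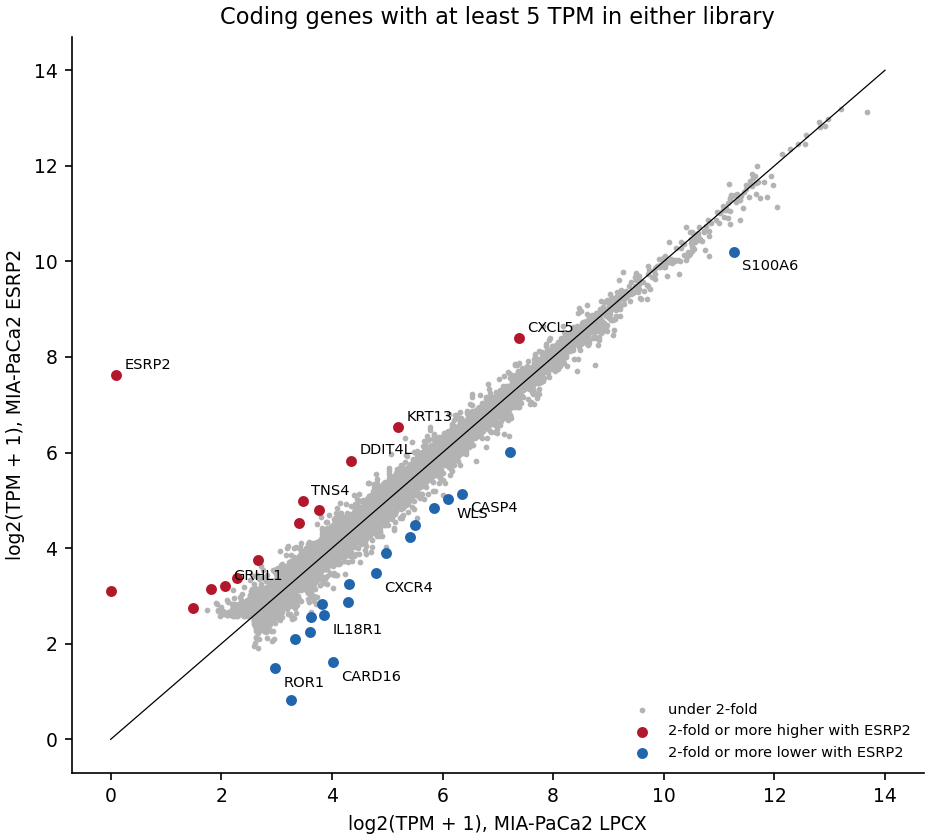
Level of 9914 coding genes as log2 of TPM plus 1, in MIA-PaCa2 ESRP2 on the vertical axis and MIA-PaCa2 LPCX on the horizontal axis, 1 library each. The line marks equal levels; 13 genes lie 2-fold or more above it, with ESRP2 farthest, and 19 lie 2-fold or more below it, among them CARD16 and S100A6.

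The same genes can be read in PANC-1, where few genes of any kind differed 2-fold. Of the 13 higher genes 5 reached 5 TPM in a PANC-1 library, and 1 of them, ESRP2, was 2-fold higher there with ESRP2, against 0.0868% of all. Of the 19 lower genes 12 reached 5 TPM and 0 were 2-fold lower, against 0.076% of all. With such small shares over all genes, these 2-fold counts say little. By sign alone, 6 of the 12 lower genes had a negative ratio in PANC-1, against 28.4% of all genes. Of the 5 higher genes 2, ESRP2 and GRHL1, had a positive ratio there, against 71.6% of all. GRHL1 had 12.01 TPM in PANC-1 ESRP2 and 6.68 TPM in PANC-1 LPCX, a log2 ratio of 0.76. CASP4 had 19.97 TPM in PANC-1 ESRP2 and 23.0 TPM in PANC-1 LPCX, and S100A6 had 3225 TPM in PANC-1 ESRP2 and 3419 TPM in PANC-1 LPCX. KRT13, CXCL5, TNS4 and DDIT4L were under 1 TPM in both of these PANC-1 libraries, so they could not be compared.

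A trend with transcript length ran through the gene ratios and bears on every list below. Across 9813 genes with a known length, 98.98% of those tested, the rank correlation of the ratio with length was 0.36. The same value was 0.06 for ESRP1 over the same LPCX library and 0.27 for ESRP2 in PANC-1. In MIA-PaCa2 the median log2 ratio of ESRP2 over LPCX was -0.08 in the shortest of 10 length classes of genes, of about 966 bases, and 0.17 in the longest class, of about 8172 bases. Genes of 1 library pair share their RNA preparation, so this correlation is a description of these libraries and carries no p-value. Transcripts without a coding sequence took 12.1% of the TPM with ESRP2 and 11.1% with LPCX. What set the trend was not tested. With it taken out, 6 of the genes named above fell short of 2-fold, among them S100A6 at a log2 ratio of -0.92, CXCL5 at 0.97, TRAF1 at 0.97 and ADAMTS4 at 0.92. In turn 3 genes passed 2-fold only with the trend taken out, CNFN at 1.12, PDE5A at -1.08 and RGS5 at -1.04.

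**Figure D4:**
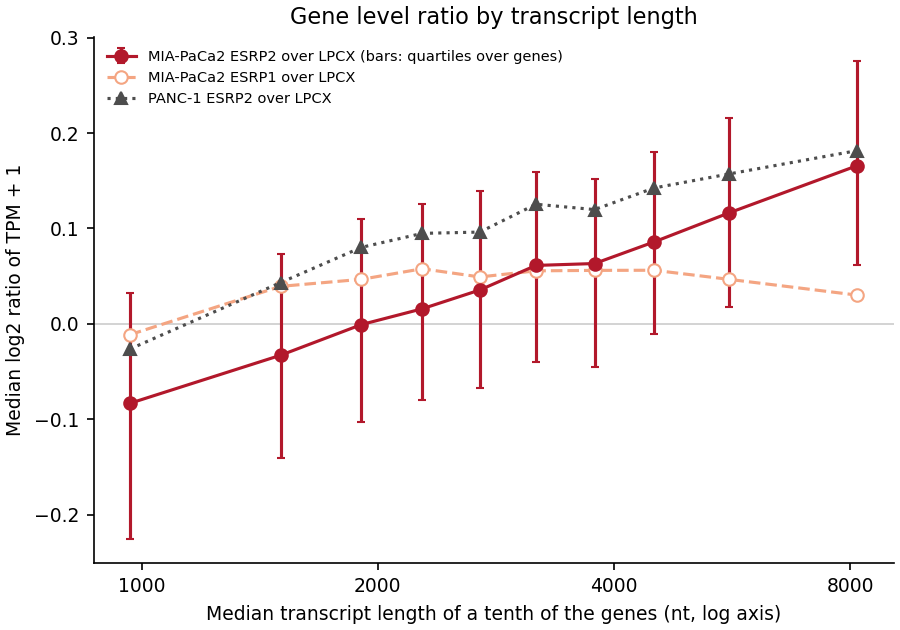
Median log2 ratio of TPM plus 1 in 10 classes of genes by transcript length in bases (log axis), for ESRP2 over LPCX in MIA-PaCa2 (filled circles, bars are quartiles over genes), ESRP1 over LPCX in MIA-PaCa2 (open circles) and ESRP2 over LPCX in PANC-1 (triangles). The ESRP2 values in MIA-PaCa2 run between -0.08 and 0.17 from short to long genes.

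Gene lists are given by their counts and medians beside those of all genes, of which 60.7% had a positive ratio and the median was 0.05. Junction and identity genes of epithelia had 27 of 52 members measured, of which 24 were positive, with a median of 0.21 and of 0.09 after the length trend was taken out. Of these 1 passed 2-fold, GRHL1, and none was 2-fold lower. SPINT2, a protease inhibitor of epithelia, had 16.3 TPM with ESRP2, 9.08 TPM with ESRP1 and 9.89 TPM with LPCX, and ITGB4, the partner of ITGA6 in hemidesmosomes, had 172 TPM with ESRP2, 105 TPM with ESRP1 and 113 TPM with LPCX. The tight junction gene LSR had 5.198 TPM with ESRP2 and 3.27 TPM with LPCX. These 3 were higher with ESRP2 by less than 2-fold. Mesenchymal genes had 9 of 17 positive with a median of 0.03, with 1 higher 2-fold, TGFBI, and none lower. CAV1, a caveolar protein, had 73.2 TPM with ESRP2 and 42.6 TPM with LPCX, and CD99L2 had 31.8 TPM with ESRP2 and 49.5 TPM with LPCX. The mesenchymal list therefore had no common direction.

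Genes of NF-kB signalling, cytokines and chemokines had 12 of 16 positive, with a median of 0.22 and of 0.19 after the length trend was taken out. None of the 16 was 2-fold higher, and CARD16 and CXCR4 were 2-fold lower. The list holds neither the chemokine CXCL5 nor the adaptor TRAF1, which were both 2-fold higher as measured. BIRC3, an inhibitor of cell death induced by NF-kB, had 6.13 TPM with ESRP2 and 2.77 TPM with LPCX, a log2 ratio of 0.92. NFKB2 had 45.8 TPM with ESRP2 and 31.8 TPM with LPCX. RELB, its partner, had 10.4 TPM with ESRP2 and 7.24 TPM with LPCX. The p53 targets and CDK inhibitors had 15 of 22 positive with a median of 0.13, led by SFN and by BBC3, the cell death gene PUMA, at 9.52 TPM with ESRP2 and 5.89 TPM with LPCX. Metallothioneins had 6 of 8 positive with a median of 0.19, and MT1X had 518 TPM with ESRP2 and 355 TPM with LPCX, while MT1G had 20.5 TPM with ESRP2 and 28.1 TPM with LPCX. Interferon response genes had 15 of 26 positive with a median of 0.05, led by ISG15 at 50.4 TPM with ESRP2 and 31.7 TPM with LPCX.

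Lists whose members are mostly long or mostly short are given with and without the length trend. Giant cytoskeletal genes, of about 9026 bases in the median, had 22 of 24 positive with a median of 0.25, which was 0.05 after the trend was taken out. MACF1, a linker of actin and microtubules, had 39.6 TPM with ESRP2 and 26.1 TPM with LPCX. Ribosomal protein genes, of 841 bases in the median, had 21 of 79 positive with a median of -0.09, which was 0.00 after the trend was taken out. Subunits of the respiratory chain had 22 of 75 positive with a median of -0.09, and -0.04 after the trend was taken out. Genes mutated in pancreatic cancer had 15 of 20 positive with a median of 0.19, and 0.07 after it. None of the genes in these 4 lists passed 2-fold.

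Growth, metabolic, splicing and matrix lists had medians near that of all genes as measured. Genes of G1/S and DNA replication had 27 of 45 positive with a median of 0.02, and those of G2/M and mitosis 18 of 37 with a median of -0.01. UNG, a uracil glycosylase, stood apart in the first list with 149 TPM with ESRP2, 120 TPM with ESRP1 and 92.1 TPM with LPCX. Cholesterol synthesis had 17 of 28 positive with a median of 0.04, glycolysis and hypoxia 20 of 30 with a median of 0.04, and the ATF4 and unfolded protein response 15 of 34 with a median of -0.01. SR proteins, hnRNPs and their kinases had 27 of 40 positive with a median of 0.04. Other splicing regulators had 14 of 27 positive with a median of 0.02, and PTBP3 led after ESRP2 itself, with 60.1 TPM with ESRP2 and 39.8 TPM with LPCX. Collagens, laminins and integrins had 10 of 21 positive with a median of -0.01, which was -0.12 after the length trend was taken out, and COL5A2 had 303 TPM with ESRP2 and 449 TPM with LPCX. No member of these lists passed 2-fold apart from ESRP2.

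**Figure D5:**
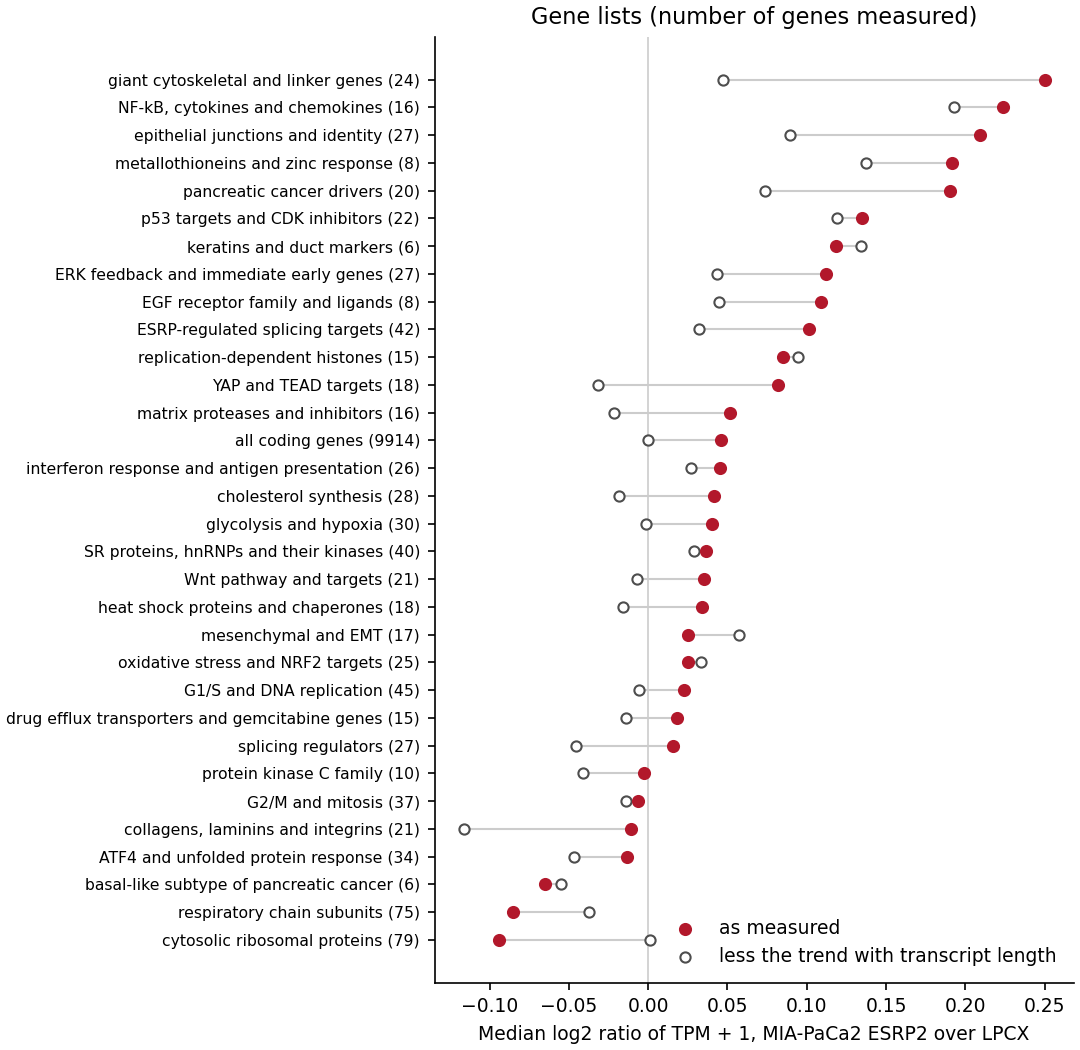
Median log2 ratio of TPM plus 1, MIA-PaCa2 ESRP2 over LPCX, of each gene list with at least 6 measured genes (number in brackets), as measured (filled) and after the trend with transcript length was taken out (open). Giant cytoskeletal genes lie at 0.25 and 0.05, NF-kB genes at 0.22 and 0.19, and ribosomal protein genes at -0.09 and 0.00.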

How the data were processed

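Libraries with ESRP2, ESRP1 or LPCX were used, 1 a group. The tool was Salmon and the build GRCh38 (hg38), per the submitters' processing notes, with no version among the sources used here. TPM per RefSeq transcript were deposited by the authors in 1 table, and the unit carries no read counts, so depth and counting error are unknown. Of 67792 deposited lines 8664 repeated another and were dropped, which left 59128 transcripts in 27408 genes and 1000000 TPM per library. The MIA-PaCa2 ESRP2 column is headed ESRP12 and the LPCX column spells the line PaCo2. Both were assigned by cell line and construct.

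TPM were summed per gene. Genes with an NM transcript and at least 5 TPM in either library were compared as the log2 ratio of TPM plus 1, which understates differences of low genes. Shares needed 20 TPM in both libraries. RefSeq transcripts were paired 1 to 1 with GENCODE release 29 (39244, or 66.4%, with 81.8% of the TPM), and a gene needed 90% of its TPM in paired transcripts for exon inclusion. Inclusion was kept where it was 5% to 95% in some library and transcripts across the exon had 5 TPM. Salmon estimates how reads divide among transcripts that overlap, and no junction reads enter these values. The length trend was a lowess curve over 0.3 of the genes (statsmodels 0.14.6, numpy 2.4.6, pandas 2.3.3, Python 3.11.15). The steps recovered known changes in simulated tables. Those changes were larger than the cutoffs and the added noise was small or absent, so this checks the code and not the spread between libraries.

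With 1 library a group no test was run. Members and lists were chosen with earlier results of these data known. Named genes are ESRP1 and ESRP2, the 12 highest and 12 lowest with 10 TPM, every list member past 2-fold or else the 3 with the largest ratios, the 15 genes with the largest share differences, moved targets, and the 12 exons highest and lowest by difference. Some items that these rules take are not reported here. The text gives a selection of the others, plus all 32 genes past 2-fold; other lookups, such as FBXW11, TSEN15 and neighbours of named genes, were chosen after their values were seen. Alternatives were other pseudocounts, floors, steps, scaling, the length trend, NM transcripts only and repeats kept.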

Additional observations from a re-analysis of the deposited data

Results flagged for a closer look

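3 genes past 2-fold in MIA-PaCa2 lay past 2-fold in the opposite direction in PANC-1, each with 1 library a group. The difference between the lines was not tested. CXCR4 had a log2 ratio of ESRP2 over LPCX of -1.32 in MIA-PaCa2, from 10.1 TPM with ESRP2 and 26.8 TPM with LPCX. In PANC-1 its ratio was 1.31, from 5.81 TPM with ESRP2 and 1.74 TPM with LPCX. HIST1H4E, a histone gene, had a ratio of 1.09 in MIA-PaCa2, from 9.34 TPM with ESRP2 and 3.87 TPM with LPCX, and of -1.30 in PANC-1, from 2.21 TPM with ESRP2 and 6.89 TPM with LPCX. SERF1A had a ratio of -1.41 in MIA-PaCa2, and its ratio in PANC-1 was 1.15. Its near-identical copy SERF1B went the other way in PANC-1, with 28.3 TPM with ESRP2 and 66.3 TPM with LPCX, beside 55.6 TPM with ESRP2 and 24.5 TPM with LPCX for SERF1A.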

How the results depend on the processing

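No paired analysis was possible because each group has 1 library and the labels carry no replicate numbers. The count of genes 2-fold higher, 13, was 5 with a pseudocount of 5 TPM, 38 with a floor of 1 TPM or no filter, 7 with a floor of 20 TPM and 84 at a 1.5-fold step. The count of genes 2-fold lower, 19, was 8 with a pseudocount of 5 TPM, 9 with a floor of 20 TPM and 85 at a 1.5-fold step. Transcripts with a higher share, 68, numbered 230 with a floor of 5 TPM, 26 with 50 TPM, 377 at 10 points and 19 at 30 points. Those with a lower share, 62, numbered 227, 23, 376 and 22 under the same settings, and the genes, 78, numbered 280, 27, 442 and 25. Exons with higher inclusion, 33, numbered 89 at 10 points and 20 at 30 points, and those with lower inclusion, 7, numbered 26 with a floor of 5 TPM, 42 at 10 points and 1 at 30 points. Counts over more low genes rest on fewer molecules each. With 75% in place of 90% of TPM paired, a setting chosen after seeing the data, 34 exons were higher and 10 lower. Other counts stayed within 1.5 times, and the median of all genes lay between -0.00 and 0.05. No named gene past 2-fold changed sign under any of the 5 settings tried for genes. A pseudocount of 5 TPM took 19 of the named genes below 2-fold, and the length trend took out 6, namely ADAMTS4, TRAF1, TGFBI, CXCL5, S100A6 and SNURF. The cause was not tested. All 20 named share differences stayed past 20 points with NM transcripts only and with 0.5 TPM added.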

Other observations

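The HOXB genes, homeobox factors encoded side by side on chromosome 17, were looked up after their values were seen. HOXB2 to HOXB9, 8 neighbouring genes, had log2 ratios of ESRP2 over LPCX in MIA-PaCa2 between 0.43 and 0.75, and of ESRP1 over the same LPCX library between -0.35 and -0.10. HOXB9 had 109.9 TPM with ESRP2, 64.9 TPM with ESRP1 and 75.8 TPM with LPCX. HOXB8 had 88.1 TPM with ESRP2, 49.8 TPM with ESRP1 and 53.6 TPM with LPCX, and HOXB2 had 79.9 TPM with ESRP2, 47.5 TPM with ESRP1 and 52.0 TPM with LPCX. HOXB13, which lies apart from the others, had 8.05 TPM with ESRP2, 8.26 TPM with ESRP1 and 7.86 TPM with LPCX. In PANC-1 HOXB9 had 50.8 TPM with ESRP2 and 44.3 TPM with LPCX, and HOXB8 had 35.2 TPM with ESRP2 and 37.4 TPM with LPCX. None of these genes passed 2-fold, and the genes were not tested.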
